A study of Mus musculus with 10 samples.

Results

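The immunity-related GTPases (IRG) are a family of interferon-inducible GTP-binding proteins. The 7 genes described here, *Irgm1*, *Irgm2*, *Igtp*, *Iigp1*, *Ifi47*, *Tgtp1* and *Tgtp2*, were taken by gene name from a table of 54532 genes, and all 7 were found. RNA-seq had been done on 10 samples of neural retina from BALB/c albino mice at 2 months of age. All mice were kept in the dark for 12 h and were then placed for 1 day under normal light (NL, 200 lux, 5 retinas) or under damaging light (LD, 15000 lux, 5 retinas). No allele, transgene or drug was used, and the light level is the only labelled difference between the groups. The values are FPKM, the fragments of a gene scaled to its length and to the reads of the library, so that levels can be compared between genes. Retinas are named by the group and replicate number of the labels.

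IRG proteins are made when interferon, mostly interferon-gamma, signals through its receptor and transcription factors such as IRF1 are induced. They are known from infected macrophages and fibroblasts, where they coat and break the vacuoles that hold parasites such as *Toxoplasma*. The family has regulators and effectors. The effectors bind GTP, assemble on the target membrane and deform it, while the regulators sit on the membranes of the host cell and hold the effectors in their inactive state. *Irgm1*, *Irgm2* and *Igtp* (also called Irgm3) encode the regulators, and *Iigp1* (Irga6), *Ifi47* (Irgd), *Tgtp1* and *Tgtp2* (together Irgb6) encode effectors.

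The difference between these classes can be read in 8 codons of the nucleotide-binding loop. These codons are shown because they set which genes are added up as regulators and as effectors below. The capitals mark the codon that differs, ATG for methionine in the regulators (the GMS class) and AAG for lysine in the effectors (the GKS class). The sequences were read 5′ to 3′ along each gene from GENCODE M21 on GRCm38. They lie at chr11:48866761-48866784 (minus strand) for *Irgm1*, chr11:58219695-58219718 (plus) for *Irgm2*, chr11:58206275-58206298 (plus) for *Igtp*, chr11:49095648-49095671 (plus) for *Ifi47*, chr11:48987667-48987690 (minus) for *Tgtp1* and chr11:49059534-49059557 (minus) for *Tgtp2*. Each is in the coding part of an exon.
Irgm1: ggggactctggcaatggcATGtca
Irgm2: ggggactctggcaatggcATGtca
Igtp: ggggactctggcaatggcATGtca
Ifi47: gggcagtctgggactggcAAGtcc
Tgtp1: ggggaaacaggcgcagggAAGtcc
Tgtp2: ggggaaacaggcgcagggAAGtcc

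*Iigp1*, whose bases are not shown, also had lysine at this codon. The 24 bases were the same in the 3 regulators, and also the same in *Tgtp1* and *Tgtp2*. Over the whole coding sequence, *Tgtp1* and *Tgtp2* were identical at 99.7% of 1245 aligned bases, with 4 mismatches. No other pair among the 7 was above 74.6%, the value for *Irgm2* and *Igtp*. Of all windows of 100 exonic bases, 73.1% in *Tgtp1* and 76.8% in *Tgtp2* also occurred in another gene, almost always in the other of the pair. How their reads were divided is therefore uncertain. The sources used here do not say whether reads that match both were kept, so both levels may be too low. *Irgm2* and *Igtp* shared 162 exonic bases on the same strand, because 1 *Irgm2* transcript begins at *Igtp*, and 3.01% and 5.16% of their windows. *Irgm1* and *Iigp1* shared no window with another gene. Exons of *Ifi47* overlap those of *Olfr56* (111 bases, same strand) and of the pseudogene *Gm12188* (106 bases, opposite strand), and the sources used here do not say whether counting used the strand.

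The 10 retinas held 18965090 to 26832535 reads in genes, 21343389 to 26832535 in NL and 18965090 to 23378090 in LD. Nothing in the labels ties each retina to a separate animal, so that p-values measure the spread between these samples. Of the pairs of retinas within a group, LD-4 and LD-6, NL-5 and NL-7, and LD-1 and LD-7 were closest, at a chi-square per gene of 2.65 to 3.65 against 12.15 to 43.4 for the other pairs, yet further apart than sampling noise. *Xist*, a transcript of the inactive X chromosome, was at 159 to 194 FPKM in NL-4, NL-8, LD-4 and LD-6 and at most 0.118 in the others, and the labels give no sex. Members are therefore also given below with these 3 pairs averaged and with *Xist* in the model. The 4 rod markers checked, *Gnat1*, *Pde6b*, *Nrl* and *Sag*, summed to 4001 to 4626 FPKM in NL and 589 to 1308 in LD. All 4 were called lower after LD. In whole tissue, fewer cells of a type and less RNA per cell cannot be told apart. 

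All 7 genes rose after LD, by 25.3-fold for *Igtp* to 84.2-fold for *Iigp1* in the ratio of mean FPKM. Each passed the thresholds used in the study, an adjusted p under 0.01 and a change above 2-fold, in limma's test over 24508 genes with Benjamini-Hochberg adjustment. In that test 1013 genes, 4.13% of those tested, were called higher in LD, and 6.51% were called in either direction. In each of the 7 genes every LD retina lay above every NL retina, as in 11.8% of all genes tested. The median log2 fold change, on the scale log2(FPKM + 0.1), was 4.54 for the 7 genes and -0.01 for all genes tested. The change exceeded 4 on this scale in 4 of the 7 genes and in 47 called genes in all, 0.192% of those tested. Among all genes tested, ordered by this change, *Iigp1* was at place 16, *Irgm2* at 19, *Irgm1* at 20, *Igtp* at 25, *Ifi47* at 53, *Tgtp2* at 141 and *Tgtp1* at 165. All 7 passed the filter on low values, but *Iigp1*, *Ifi47*, *Tgtp1* and *Tgtp2* would not have passed on their NL retinas alone.

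**Figure D1:**
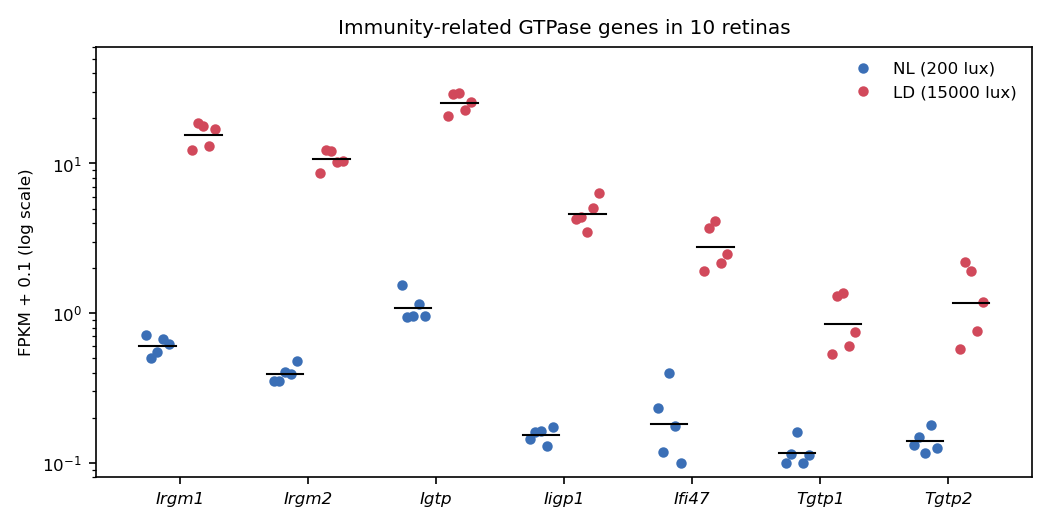
Levels of the 7 genes in single retinas, as FPKM + 0.1 on a logarithmic axis, with NL and LD retinas as separate points and a bar at the mean of each group on the log scale. In each gene the 5 LD retinas sit above the 5 NL retinas, from *Igtp* at 20.5 to 29.6 FPKM down to *Tgtp1* at 0.435 to 1.27 FPKM in LD.

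Among the regulators, *Igtp* (chr11:58199556-58207591, plus strand), whose protein is found on lipid droplets and the endoplasmic reticulum, had the highest level. It was at 1.43, 0.838, 0.853, 1.05 and 0.863 FPKM in NL-1, NL-4, NL-5, NL-7 and NL-8, and at 20.5, 28.9, 29.6, 22.6 and 25.7 FPKM in LD-1, LD-4, LD-6, LD-7 and LD-8. Hence the lowest LD retina, LD-1, was still far above the highest NL retina, NL-1, and the groups did not overlap. The means were 1.01 ± 0.254 FPKM in NL and 25.5 ± 3.94 in LD (SD, n = 5 each). The log2 fold change of *Igtp* was 4.54 (SE 0.15, limma adjusted p = 2.67e-08).

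*Irgm1* (chr11:48861968-48871683, minus strand), a regulator linked to the Golgi, lysosomes and mitochondria and to autophagy, came next. In the same order of retinas it stood at 0.612, 0.405, 0.449, 0.568 and 0.520 FPKM in NL and at 12.2, 18.4, 17.8, 13.1 and 16.9 FPKM in LD. LD-1 and LD-7 were the lowest of the LD retinas, and no LD retina came near the NL range. The means were 0.511 ± 0.0843 and 15.7 ± 2.87 FPKM (SD, n = 5 each), a ratio of 30.7. For *Irgm1*, limma gave a log2 fold change of 4.68 (SE 0.14, adjusted p = 1.27e-08).

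*Irgm2* (chr11:58199618-58222782, plus strand), whose protein is placed mainly at the Golgi, was the lowest of the regulators. The NL retinas held 0.253, 0.255, 0.307, 0.294 and 0.378 FPKM and the LD retinas 8.55, 12.3, 12.0, 10.1 and 10.3. LD-1 was again the lowest of its group and the groups were apart. The means of *Irgm2* were 0.297 ± 0.0509 and 10.7 ± 1.52 FPKM (SD, n = 5 each), a ratio of 35.8, and its log2 fold change was 4.75 (SE 0.13, limma adjusted p = 5.70e-09).

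*Iigp1* on chromosome 18, the best studied effector, was the highest of the effectors in LD. Its NL levels were 0.0449, 0.0603, 0.0631, 0.0302 and 0.0745 FPKM, which came from 2 to 6 reads per retina. The LD levels were 4.13, 4.30, 3.38, 4.91 and 6.29 FPKM, from 236 to 437 reads. LD-8 was the highest and LD-6 the lowest, unlike the regulators, and all LD retinas were far above the NL ones. From means of 0.0546 ± 0.0173 and 4.60 ± 1.09 FPKM (SD, n = 5 each), *Iigp1* had the largest ratio of means of the 7 genes, 84.2. On the log2(FPKM + 0.1) scale the change was 4.90 (SE 0.18, limma adjusted p = 4.41e-08), which understates the ratio of a gene this low in NL.

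*Ifi47* (chr11:49076587-49096974, plus strand) is an effector-class gene known as a target of interferon-gamma. It was uneven among the NL retinas, at 0.132, 0.0190, 0.299, 0.0762 and 0 FPKM from 0 to 15 reads. In LD it was at 1.81, 3.61, 4.05, 2.08 and 2.40 FPKM, from 109 to 224 reads. Thus NL-5 was the highest NL retina and NL-8 had no read, while the LD retinas fell into LD-4 and LD-6 above the other three. The means were 0.105 ± 0.120 and 2.79 ± 0.985 FPKM (SD, n = 5 each), and the log2 fold change of *Ifi47* was 3.93 (SE 0.38, limma adjusted p = 3.62e-05).

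*Tgtp2* (chr11:49057194-49064206, minus strand) and *Tgtp1* (chr11:48985327-48994172, minus strand) code for nearly the same effector, which attaches early to parasite vacuoles. *Tgtp2* was at 0.0318, 0.0481, 0.0168, 0.0802 and 0.0264 FPKM in NL and at 0.475, 2.08, 1.83, 0.658 and 1.09 FPKM in LD. *Tgtp1* was at 0, 0.0147, 0.0615, 0 and 0.0121 FPKM in NL, from 6 reads in all, and at 0.435, 1.20, 1.27, 0.507 and 0.645 FPKM in LD. In both genes LD-4 and LD-6 were the high LD retinas and LD-1 and LD-7 the low ones, and the lowest LD retina was above the highest NL retina. The log2 fold changes were 3.07 (SE 0.36, limma adjusted p = 1.37e-04) for *Tgtp2* and 2.87 (SE 0.30, limma adjusted p = 6.28e-05) for *Tgtp1*. *Tgtp1* was the lower of the pair in all 5 LD retinas, at 0.577 to 0.917 of *Tgtp2*, with the division of reads uncertain as above.

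For each of the 7 genes alone, the two-sided exact permutation test over the 10 retinas gave p = 0.00794, the smallest it can give with 5 against 5. With the 3 closest pairs averaged, the log2 fold changes were 2.86 for *Tgtp1* to 4.97 for *Iigp1*, and all 7 genes still passed both thresholds in limma's test. With *Xist* in the model they still passed too. With 1 FPKM as the pseudocount in place of 0.1, *Tgtp1* had a log2 fold change of 0.81 and so stayed under 2-fold.

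The size of the change for the low genes depends on the scale, and the reads themselves carry no pseudocount. The reads behind each FPKM value were recovered from gene length, and 100% of the values came out whole within 0.01 reads. From reads summed over the 5 retinas of each group and scaled for depth, *Iigp1* was 83.0-fold higher in LD, with a 95% interval of 53.0 to 138. The regulators were 25.2-fold (22.1 to 29.0) higher for *Igtp*, 30.4-fold (27.2 to 34.0) for *Irgm1* and 35.2-fold (29.4 to 42.5) for *Irgm2*. These intervals cover counting error only, and none of those of the regulators reached that of *Iigp1*. The other effectors were less exact, at 27.7-fold (18.9 to 42.4) for *Ifi47*, 29.7-fold (17.1 to 56.2) for *Tgtp2* and 46.8-fold (21.2 to 129) for *Tgtp1*, and all of these intervals overlapped those of the regulators. On the log2(FPKM + 0.1) scale the fitted folds of *Tgtp1* and *Tgtp2* were 7.30 and 8.40, so that their low place among the 7 on that scale is not found in their reads.

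**Figure D2:**
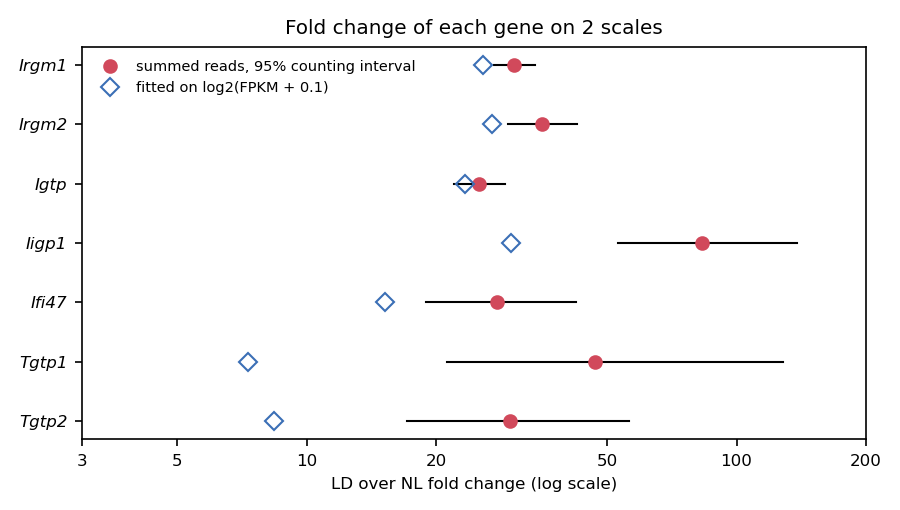
Fold change of LD over NL for the 7 genes on a logarithmic axis, once from summed reads (filled circles, with the 95% counting interval as a line) and once as fitted on log2(FPKM + 0.1) (open diamonds). The circles lie between 25.2 and 83.0, while the diamonds fall from 29.9 for *Iigp1* to 7.30 for *Tgtp1*.

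In order of level in NL, *Igtp* was above *Irgm1* and *Irgm1* above *Irgm2*, with no overlap at either step. *Ifi47*, *Iigp1*, *Tgtp2* and *Tgtp1* followed, and neighbours among them overlapped, as did *Irgm2* and *Ifi47*. In LD the regulators kept their order, *Igtp* above *Irgm1* without overlap and *Irgm1* above *Irgm2* in 5 of 5 retinas with overlapping ranges. *Iigp1* was next, below *Irgm2* without overlap, and it was above *Ifi47* in 4 of 5 retinas with overlapping ranges. *Ifi47* was above *Tgtp2*, and *Tgtp2* above *Tgtp1*, in 5 of 5 retinas with overlapping ranges. In NL, *Ifi47* was above *Iigp1* in 3 of 5 retinas. The ranges of these 2 genes overlapped in both groups, so a change in their order is not shown.

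Among the 7 genes, the regulators made up most of the summed level in both groups. The other IRG genes described below are not in these sums, and reads that match both *Tgtp1* and *Tgtp2* may be missing from them. The summed level of the 3 regulators was 1.82 ± 0.312 FPKM in NL and 51.8 ± 8.20 in LD, and that of the 4 effectors 0.218 ± 0.130 and 9.43 ± 1.84 (SD, n = 5 each). The regulators therefore held 89.3% ± 6.14 of the sum in NL and 84.7% ± 0.833 in LD. Single NL retinas ranged from 78.5% to 94.0%, with NL-5 the lowest, and LD retinas from 83.6% to 85.8%, so the LD range lay inside the NL range. The log2 ratio of regulators to effectors, with 0.1 FPKM added to each sum, was 2.66 ± 0.58 in NL and 2.45 ± 0.09 in LD (SD, n = 5 each). The difference of -0.20 was smaller than the SD in NL (p = 0.516 in an exact permutation test, two-sided). That ratio rests on a few reads of the effectors in NL. Without NL-5, the difference was -0.45 (exact permutation p = 0.0159), and with a pseudocount of 1 it turned to 1.14 (exact permutation p = 0.00794). A pseudocount of 1 is above the effector sum of every NL retina, at most 0.440 FPKM. With 0.01 in place of 0.1 the difference kept its sign and was larger, as given in the last section. In the ratio of mean sums, with no pseudocount, the 3 regulators rose 28.5-fold and the 4 effectors summed here 43.2-fold. *Gm12250*, an IRG gene described below, is not in either sum. Its mean of 0.466 FPKM in NL was above the whole effector sum there, and its mean in LD was 6.41. These shares, ratios and folds therefore hold only for the 7 genes summed.

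**Figure D3:**
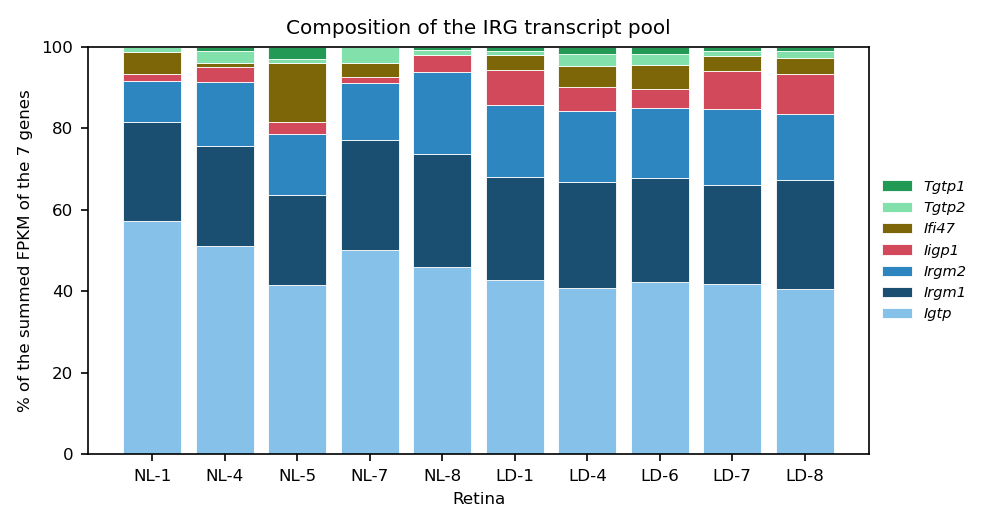
Share of each gene in the summed FPKM of the 7 genes, as stacked bars in percent for the 5 NL and 5 LD retinas. The 3 regulators fill 78.5% to 94.0% of each NL bar and 83.6% to 85.8% of each LD bar, and the LD bars resemble each other more than the NL bars do.

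Within the pool, *Igtp* held a mean of 49.2% in NL and 41.7% in LD, *Irgm1* 25.2% and 25.5%, and *Irgm2* 15.0% and 17.5%. *Iigp1* held 2.79% and 7.70%. Its NL retinas, at 1.44% to 3.98%, did not overlap its LD retinas, at 4.83% to 9.92%. *Ifi47* held 4.93% and 4.46%, *Tgtp2* 2.05% and 1.89%, and *Tgtp1* 0.908% and 1.27%, in each case with overlapping ranges. The shares were given no test of their own. The ratio of *Igtp* to *Irgm1* was 1.66 to 2.34 in NL and 1.52 to 1.73 in LD.

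Among the LD retinas the 6 genes on chromosome 11 stood in almost one order. LD-1 was the lowest in each, LD-7 the next and LD-8 the third, with LD-4 and LD-6 on top. The spread differed in size, with a ratio of highest to lowest LD retina of 1.51 for *Irgm1*, 1.43 for *Irgm2*, 1.44 for *Igtp*, 2.24 for *Ifi47*, 2.92 for *Tgtp1* and 4.39 for *Tgtp2*. *Iigp1* was the exception, with LD-8 highest, LD-6 lowest and a ratio of 1.86. LD-4 and LD-6 above LD-8, and LD-8 above LD-1 and LD-7, was found in 6 of the 7 genes, in 10.3% of all genes tested and in 17.7% of those called higher, and was described after the values were seen.

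**Figure D4:**
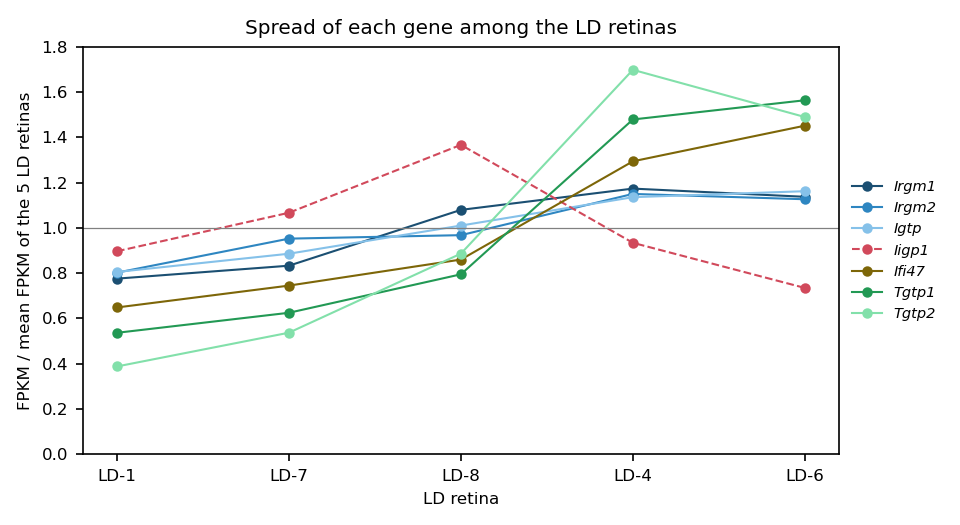
Level of each of the 7 genes in each LD retina, from LD-1 and LD-7 on the left to LD-4 and LD-6 on the right, divided by the mean of that gene over the 5 LD retinas. LD-4 and LD-6 lie above LD-1 and LD-7 in 6 genes, by 1.30 times for *Irgm2* to 3.45 times for *Tgtp2* in the mean of each pair, while *Iigp1* has its peak in LD-8.

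LD-4 and LD-6 were also close to each other in all genes, held *Xist*, and had the lowest rod marker sums, 589 and 634 FPKM against 979 to 1308 in the other LD retinas. The 4 endothelial markers checked summed to 80.6 and 79.7 FPKM in these retinas and to 47.4 to 50.8 in the other LD retinas. Markers of microglia and macrophages were at 73.8 and 75.8 FPKM there, at 122 and 107 in LD-1 and LD-7, and at 50.4 in LD-8. The part of these differences in the spread of the IRG genes was not tested. *Irf1*, the gene of a transcription factor above the family, had the same order, from 22.4 FPKM in LD-4 and 20.6 in LD-6 down to 10.8 in LD-1. So did *Irf7* of the type I interferon pathway, from 46.3 FPKM in LD-4 and 45.6 in LD-6 down to 22.8 in LD-1. The order is thus not particular to *Irf1* and the IRG genes, as 17.7% of all genes called higher met it as defined above.

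Promoters were searched for interferon response motifs because 6 members rose together and shared an order among the retinas. The letters used were GAAANNGAAA for the interferon-stimulated response element (ISRE), which interferon regulatory factors bind, and TTCNNNGAA for the gamma-activated site (GAS), a response element of interferon-gamma, on both strands of the 250 bases before and 50 after each RefSeq start on GRCm38.p6. The letters of the 2 motifs did not overlap each other in the windows below. Promoters of 6 members were matched, and *Iigp1* is named only. The following 30 bases, 5′ to 3′ along each gene, are shown because 4 members carry both motifs in them, with the motif matches in capitals. They lie at chr11:48871432-48871461 (minus) for *Irgm1*, chr11:58214896-58214925 (plus) for *Irgm2*, chr11:58199505-58199534 (plus) for *Igtp*, chr11:48992311-48992340 (minus) for *Tgtp1* and chr11:49064270-49064299 (minus) for *Tgtp2*.
Irgm1: gcctgtttcaaGAAATAGAAACCGAAActg
Irgm2: agccatTTCCAGGAActGAAACTGAAAgct
Igtp: agccatTTCTAGGAActGAAACTGAAAgct
Tgtp1: agccatTTCCAGGAAtcGAAACTGAAAcct
Tgtp2: agccatTTCCAGGAAtcGAAACCGAAAcct

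In *Irgm2*, *Igtp*, *Tgtp1* and *Tgtp2* the ISRE began 11 bases after the first letter of the GAS, and its first base was at -64, -34, -77 and -70 from the start. *Irgm1* had 2 overlapping ISRE matches, at -30 and -24, and no GAS match, and the window of *Ifi47* held neither. Of 32851 mouse promoters of this length, 3.44% held an ISRE and 8.3% a GAS by these letters. The GAS and ISRE at this spacing, which was noticed in the windows above, occurred in 5 promoters (0.0152%). The fifth was that of *Gm12185*, another IRG gene of the same cluster. These genes are related by sequence, so their promoters are not independent. Genes with the pair (*Irgm2*, *Igtp*, *Tgtp1*, *Tgtp2*) and without it (*Irgm1*, *Ifi47*) were both among those that rose. A match of letters is a description and not a measured binding site.

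The rest of the family was checked in a list of 11 further IRG genes, of which 8 were tested, 5 were called higher and none lower, beside 4.13% of all genes called higher. Of the 5, 4 passed the filter on low values only through their LD retinas, so that they had to be higher there. The median log2 fold change was 2.46, or 3.09 with the 4 genes at or under 3 reads in every NL retina set to their bounds. *Gm12250*, which RefSeq lists as Irgb10 and the table as a processed pseudogene (chr11:58187739-58189012), was at 0.466 ± 0.0928 FPKM in NL and 6.41 ± 4.11 in LD (SD, n = 5 each). Its LD retinas stood at 2.12, 11.2, 10.1, 2.89 and 5.75 FPKM, the same order as the other chromosome 11 genes, and all were above NL (log2 fold change 3.26, SE 0.43, limma adjusted p = 2.62e-04). 

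*Gm4951*, *Gm4841* and *F830016B08Rik*, the IRG genes beside *Iigp1* on chromosome 18, held 2 reads or fewer in each NL retina. Against the level of 3 reads per retina they were at least 41.5-fold, 7.58-fold and 14.0-fold higher in LD, at 2.15 ± 0.367, 0.367 ± 0.0889 and 0.584 ± 0.0966 FPKM (SD, n = 5 each). LD-4 and LD-6 were not together on top in any of these 3 genes. *Gm12185*, which shares exonic bases with *Tgtp1*, was at least 43.4-fold higher and varied by 11.4 times between LD retinas. *Irgq*, a distant relative, was at a mean of 10.7 FPKM in NL and 10.6 in LD (log2 fold change -0.01, limma adjusted p = 0.900). *9930111J21Rik1* and *9930111J21Rik2* had log2 fold changes of 0.76 and 0.78 and did not pass (limma adjusted p = 0.0310 and 0.0136). Both had few reads, at 16 and 41 in NL and 63 and 129 in LD, summed over the group. From these their folds were 3.86 (95% counting interval 2.20 to 7.17) and 3.09 (2.16 to 4.50), and voom on the recovered reads called both higher (adjusted p = 0.00839 and 0.00360). *Irgc1*, *Gm12187* and *Gm5431* were too low to be tested.

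The guanylate-binding proteins, the other family of large interferon-inducible GTPases, act with the IRG proteins on vacuoles. Of 11 genes tested, 11 were called higher, beside 4.13% of all genes, but 6 of them passed the filter only through their LD retinas and had to be higher there. The 8 genes with more than 3 reads in some NL retina had log2 fold changes of 2.73 to 4.84. *Gbp8*, *Gbp2b* and *Gbp11* were at least 6.14-fold, 7.14-fold and 27.7-fold higher against 3 reads per retina. The median log2 fold change of the 11 genes was 3.60, also with these 3 at their bounds. They summed to 2.27 to 4.56 FPKM in NL and 62.0 to 67.0 in LD, so that their sum differed less between LD retinas than the sum of the 7 IRG genes, at 48.1 to 70.8 FPKM. This does not hold for single genes of the list, which varied in opposite directions. *Gbp7* was at 22.0 and 22.5 FPKM in LD-4 and LD-6 and at 11.8 in LD-1. *Gbp9* was at 4.63 and 5.95 FPKM in LD-4 and LD-6 and at 10.7 in LD-1.

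Of the interferon-gamma pathway, 8 genes were listed, 7 were tested and 3 were called higher, beside 4.13% of all genes tested. The median log2 fold change of the 7 was 0.44. *Irf1* rose from 1.34 to 17.0 FPKM (log2 fold change 3.52, SE 0.20, limma adjusted p = 8.29e-07). *Irf8*, a partner of IRF1 in myeloid cells, and *Socs1*, the feedback inhibitor of the pathway, had log2 fold changes of 3.24 and 3.10 and were both called. The receptor and its kinases showed little change. *Ifngr1* was at -0.09, *Jak1* at -0.07 and *Jak2* at 0.11, and *Ifngr2* was at 0.44 with limma adjusted p = 0.00169, under 2-fold. *Ifng*, the ligand, had 1 read in LD-1 and none in the other 9 retinas.

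Of the type I interferon pathway, 7 of 9 genes were tested and 4 were called higher, again beside 4.13% of all genes tested. The median log2 fold change of the 7 was 1.12. *Irf7*, *Irf9* and *Stat2*, which carry the signal to ISRE sites, had log2 fold changes of 3.90, 2.89 and 2.06 and were called, as was the receptor gene *Ifnar2* at 1.12 (limma adjusted p = 4.41e-04). *Ifnar1* and *Tyk2* were at 0.08 and 0.03, and *Irf3* at -0.32 (limma adjusted p = 0.00215), under 2-fold. *Ifnb1* had 3 reads in LD-7 and *Ifna4* 1 read in LD-6, with none elsewhere. At these depths, neither kind of ligand could be compared between the groups.

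Transcripts were also compared for proteins that help to load IRG proteins onto vacuoles. Of 10 genes of the autophagy conjugation machinery, all 10 were tested and none was called in limma's test, with 5 at an unadjusted p under 0.05 and 0 called by voom on the recovered reads. Their log2 fold changes ran from -0.41 to 0.70, with a median of -0.02. *Gabarap*, at 0.70, and *Atg12*, at -0.29, had an adjusted p under 0.01 (8.93e-04 and 0.00301 in limma's test) but were under 2-fold. Of 3 genes for the ubiquitin tagging of coated vacuoles, *Trim21* was called higher, from 0.998 to 9.62 FPKM (log2 fold change 3.15, SE 0.12, limma adjusted p = 5.63e-08). *Sqstm1*, the adaptor p62, was at 0.50 with limma adjusted p = 0.00455, under 2-fold, and *Traf6*, a ubiquitin ligase, at -0.09.

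**Figure D5:**
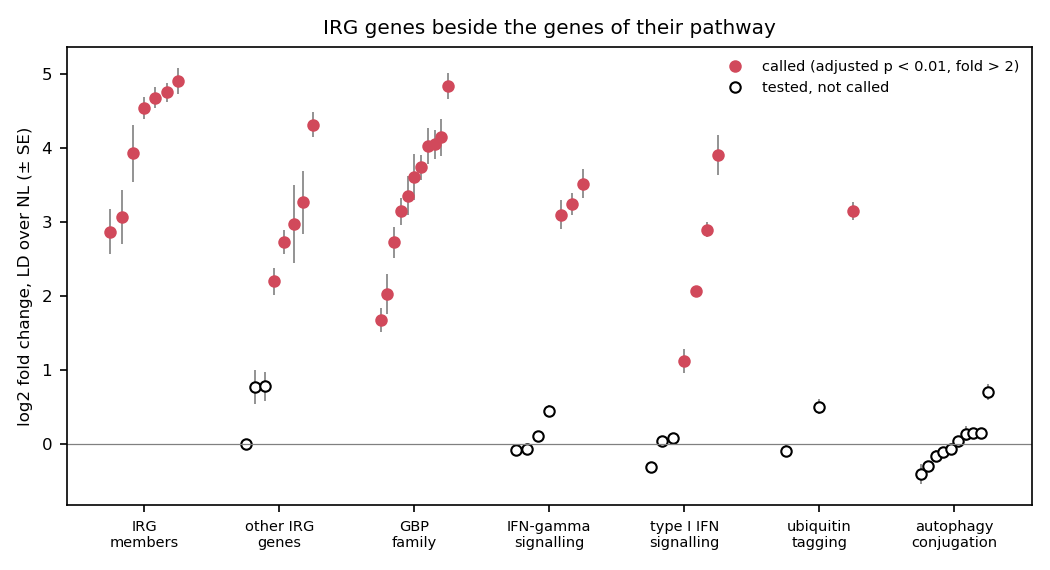
Log2 fold change of LD over NL (± SE) for each tested gene of the IRG members, the other IRG genes, the guanylate-binding proteins, interferon-gamma and type I interferon signalling, ubiquitin tagging and autophagy conjugation. Fitted values are plotted for all genes, those given above as bounds included. The 7 members lie between 2.87 and 4.90 and the autophagy genes between -0.41 and 0.70.

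Markers of the cell types that the samples could hold were compared in the same way. Of 10 markers of microglia and macrophages, 7 were called higher, beside 4.13% of all genes tested. Of the 7, *Ptprc* would not have passed the filter on its NL retinas alone. The sum of the 10 was 22.1 to 38.9 FPKM in NL and 50.4 to 122 in LD. Most of it in LD came from *C1qa*, *C1qb* and *C1qc*, at means of 37.3, 20.3 and 13.0 FPKM. *P2ry12* and *Tmem119*, which define resting microglia, were at -0.74 and 0.22 and were not called. The monocyte markers *Plac8* and *Lyz2* were called higher, with a sum of the 4 listed markers of 0.859 to 2.64 in NL and 5.68 to 12.1 in LD. *Plac8*, with 1 read in NL and 41 in LD over the group, passed the filter only through its LD retinas and had to be higher there. *Ly6c2* and *Ccr2*, too low to be tested, had 0 and 2 reads in NL and 43 and 54 in LD. Neutrophil markers summed to 0.260 to 0.464 and 0.224 to 0.895, and markers of T and NK cells to 0.180 to 0.252 and 0.155 to 0.657, with none called in limma's test. Of these, 2 neutrophil markers and 1 T and NK cell marker were high enough to be tested, and at an unadjusted p under 0.05 there was 1 neutrophil marker. Voom called 0 of either list. Over the group, *Cd3d* and *Cd3e* of T cells had 3 and 1 reads in NL and 0 and 1 in LD. *Cd3g* had 0 in NL and 8 in LD, *Gzma* 1 and 10, and *Ncr1* 0 and 4, too few to be tested. *Cd3g* was highest in LD-6, with 4 reads, and LD-4, with 3. Other markers of this list fell otherwise. All 4 reads of *Ncr1* were in LD-8, and *Gzma* had 7 reads in LD-6 and 0 in LD-4. *Cd8a* had 5 reads in LD-1, 3 in LD-6 and 0 in LD-4. *Cd4* was highest in LD-6, with 22 reads, and lowest of the LD retinas in LD-4, with 9. Further, *Ms4a1*, which marks B cells, had no read in any retina, while the other 2 B cell markers were tested and not called (0 at an unadjusted p under 0.05, 0 called by voom). Endothelial markers were at 32.5 to 43.1 FPKM in NL and 47.4 to 80.6 in LD, with 1 of 4 at an unadjusted p under 0.05 and none called by limma or voom. Most of that sum was *Kdr*, at 27.1 to 37.1 FPKM in NL and 38.1 to 64.4 in LD. *Pecam1*, *Cdh5* and *Cldn5*, at log2 fold changes of 0.06, 0.40 and 0.67, overlapped between the groups. Of the 5 markers of the pigment epithelium, the layer next to the neural retina, none was called by limma or voom and 1 had an unadjusted p under 0.05, with sums of 49.1 to 132 in NL and 55.6 to 109 in LD. The astrocyte and glial stress marker *Gfap* was called higher, by 3.20 on the log2 scale. *Pax2*, the other astrocyte marker listed, was at 0.36 and was not called (limma adjusted p = 0.354). Of the 4 Müller glia markers, *Glul* was lower by 2.09 on the log2 scale. The other 3 were not called, with *Slc1a3* at 0.50 (limma adjusted p = 0.0109, no overlap between the groups), *Aqp4* at 0.08 and *Rlbp1* at -0.52. The part of these cell types in the change of the IRG genes was not tested. LD-8, with the lowest microglia sum of its group, had the highest *Iigp1* level, and LD-1, with the highest microglia sum, had the lowest level of the other 6 members. The monocyte sum was 12.1 and 11.8 FPKM in LD-4 and LD-6, where those 6 members were highest, and 5.68 to 9.30 in the other LD retinas. Most of that sum was *Lyz2*, at 11.7 and 11.3 FPKM in LD-4 and LD-6. The other monocyte markers peaked elsewhere, *Ly6c2* in LD-7 (0.272 FPKM) and *Ccr2* and *Plac8* in LD-8 (0.140 and 0.339 FPKM). None of these orders of single retinas was tested.

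Over the 10 retinas, the genes most like the mean profile of the 7 members were *Parp14*, *Cd274*, *Parp9*, *Gbp7* and *Serpina3n*. Their root mean square distance to it, with each gene's own mean taken off on the log2(FPKM + 0.1) scale, was 0.134 to 0.210. Both *Irgm1* and *Igtp* had each other as the nearest of all genes tested, at 0.139. *Irgm2* was nearest to *Irgm1* (0.189) and *Iigp1* to *Irgm2* (0.303). *Tgtp1* and *Tgtp2* were both nearest to *Crym* (0.270 and 0.238), the gene of mu-crystallin, and lay 0.359 from each other. *Ifi47* was nearest to *Cd274* (0.374), the gene of the ligand PD-L1. Distances over 10 retinas in 2 groups mostly reflect the size of the change between the groups.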

How the data were processed

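The authors deposited FPKM values per gene for the 10 retinas. RNA had been extracted with Trizol, TruSeq libraries were made, and a company sequenced them and normalized the data. The submitters' processing notes name TopHat2 2.0.9, Bowtie2 2.0.6 and mm8, but the positions in the table are on GRCm38: 54409 of 54532 identifiers are in GENCODE M21 and 53499 have the same position there. The counting program and its strand setting are not given in the sources used here. No column of another sample was found (0).

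The test used log2(FPKM + 0.1) and kept the 24508 genes that reached 0.1 FPKM in 5 or more retinas. The 2 groups were compared by limma 3.58.1 (R 4.3.3) with an intensity trend and Benjamini-Hochberg adjustment over these genes. The FPKM of each retina carries a scaling factor of the authors, 0.951 to 0.968 in NL and 1.041 to 1.069 in LD, which was kept. Single values were compared by two-sided exact permutation tests (scipy 1.17.1, numpy 2.4.6, pandas 2.3.3, Python 3.11.15), and plots were made with matplotlib 3.10.9. The limma step was tested on simulated data. The alternatives changed the pseudocount, filter, scaling, test, threshold, pairing and retinas used. The *Xist* covariate was added after seeing the data. Where no NL retina had more than 3 reads of a gene, its fold is given as a bound against 3 reads per retina, which covers counting error only, and the fitted value serves only for calls, medians and the pathway plot.

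The genes named are the 7 members, fixed lists of their family, pathway and cell type markers, and the nearest patterns. Some genes of the lists are not reported here and were left out of their counts, medians and sums. The members and lists were chosen with earlier results of these data known. Replicate numbers 1, 4, 7 and 8 occur in both groups, but same-numbered retinas did not deviate together (correlations of 0.0575, 0.0656, -0.0121 and -0.0893), so they were not treated as pairs.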

Additional observations from a re-analysis of the deposited data

Results flagged for a closer look

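Of 64 groups of 5 values examined, 7 held a retina far from the other 4, where about 3.2 would be set apart by chance (1 in 20). That rate does not hold for genes near 0 reads, since a single read beside zeros is always flagged. *Tgtp1* in NL-5 was at 0.0615 FPKM, against 0 to 0.0147 in the other NL retinas, and rests on 4 reads of a gene that shares most of its sequence with *Tgtp2*. *F830016B08Rik* in NL-8 was at 0.0118 FPKM from 1 read, against 0 in the others. *Plac8*, a monocyte marker, was at 0.0309 FPKM in NL-5, also from 1 read, and at 0 in the other NL retinas. *9930111J21Rik1* was at 0.105 FPKM in NL-1, against 0 to 0.0289 in the other NL retinas, and at 0.0734 in LD-8, against 0.119 to 0.135 in the other LD retinas. *Gfap* was at 23.1 FPKM in NL-1, against 7.24 to 10.5 in the other NL retinas. The log2 ratio of regulators to effectors in NL-5 was 1.66, against 2.72 to 3.13 in the other NL retinas, and the same retina was the highest of its group in *Tgtp1* and *Ifi47*.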

How the results depend on the processing

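The counts of calls and the changes of 31 single genes, the 7 members among them, were recomputed under up to 24 alternatives, and the regulator to effector ratio under 15. Shares, orders, summed reads, list medians and nearest patterns were not recomputed. Of 166 values of the 7 members under these, 165 remained past both thresholds. The exception was *Tgtp1* with a pseudocount of 1, where 6 members were called. With a filter at 1 FPKM, 5 were called, since *Tgtp1* and *Tgtp2* were not tested. The 1595 genes called in all (6.51% of those tested) became 816 with a pseudocount of 1 and 6818 at an adjusted p under 0.05 with no fold limit. Leaving out 1 retina gave 1379 to 1603, and 7 members were called each time. With the replicate number as a block in the 8 retinas that share numbers, 808 genes were called, against 1182 in the same retinas without the block, and all 7 members were called in both. Without the authors' scaling the median log2 fold change of all genes moved from -0.01 to 0.11, and the members stayed past both thresholds.

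The regulator to effector difference of -0.20 (p = 0.516) turned to 1.14 (p = 0.00794) with a pseudocount of 1, and was -0.67 (p = 0.0476) with 0.01, in exact permutation tests. Leaving out 1 retina gave -0.45 (exact permutation p = 0.0159, without NL-5) to -0.083. The effectors had few reads in NL, which limits that ratio and the folds of *Tgtp1*, *Tgtp2* and *Ifi47*. Of the other genes, *Gm4841*, *F830016B08Rik*, *Gm12185* and *Ifnar2* fell under 2-fold with a pseudocount of 1, as did *Plac8*. *Gm12185* also missed the adjusted p by voom (0.0259) and in the 8 retinas with the block (0.0345) and without it (0.0149). *Plac8* and *Lyz2* missed it with the block (0.0166 and 0.0157). *9930111J21Rik1* and *9930111J21Rik2* were called by voom.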
